A study of Mus musculus with 24 samples.

Results

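The 34 genes described here encode collagens, enzymes and proteoglycans that build extracellular matrix, and proteins typical of contractile mesenchymal cells. They were taken by symbol from a list of 34 among the 54429 genes of the files, and each was found. The list had been chosen from knockout against wild-type values of these same libraries, with and without IL-4. Those differences are therefore given as a description with no test. The count filter kept 31 of the 34, among 12797 genes in all.

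The cultures were macrophages grown from the marrow of femurs and tibias of C57BL/6N mice. They were MK2 knockout or MK2 wild type at Mapkapk2, which encodes a p38-activated kinase. M-CSF at 10 ng/ml was present throughout growth in all of them, and cells were replated on day 7. Knockout M2 and wild-type M2 cells then received murine IL-4 at 10 ng/ml, and knockout M0 and wild-type M0 cells were left unstimulated; all were harvested after 24 h. Each of the 4 groups has 6 libraries. Neither the knockout allele, nor the age of the mice, nor the animals behind each replicate are given in the labels. The p-values therefore measure only how these libraries vary, which may be technical.

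Total counts lay between 7893809 and 13492507 per library. Levels are in CPM, counts scaled to library size by TMM, and levels that set 1 gene beside another are in GETMM, the authors' values scaled for gene length. Mapkapk2 averaged 54.0 ± 4.38 CPM in knockout M2 and 58.8 ± 2.88 CPM in knockout M0 cells, against 119.8 ± 9.93 in wild-type M2 and 119 ± 13.9 in wild-type M0 cells (SD, n = 6 each), with no overlap between genotypes. The macrophage markers Csf1r, Adgre1 and Cd68 were abundant in every library, at 1143 to 1533, 1065 to 1209, 924 to 1682 and 843 to 1266 CPM for Csf1r in knockout M2, knockout M0, wild-type M2 and wild-type M0 cells. The M0 and M2 libraries of a genotype share a culture number in the labels, 7 to 12 in knockout and 1 to 6 in wild-type cells. Knockout culture 7, which is replicate 1 of both knockout groups, stood above the other knockout libraries in most of the genes described here. Without it the mean levels of 2 of the 31 measured genes in knockout M2 cells (Loxl1 and Grem1) and of 2 in knockout M0 cells (Loxl1 and Fbln2) moved by over 1.5 times.

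Fibrillar collagens are made as procollagen chains, trimmed outside the cell, assembled into fibrils and cross-linked through lysines oxidised by lysyl oxidases. Small proteoglycans and glycoproteins set the spacing of the fibrils, and fibrillins and latent TGF-beta binding proteins form microfibrils that store growth factors. Fibroblasts, pericytes and smooth muscle cells are the usual makers of this matrix, whereas macrophages are known mainly for taking it up and degrading it.

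In mm10 the gene Col1a1 spans chr11:94936224-94953042 on the plus strand, Col1a2 spans chr6:4504814-4541544 on the plus strand, and Col18a1 spans chr10:77052178-77166548 on the minus strand. Col4a1 (chr8:11198423-11312826 on the minus strand) and Col4a2 (chr8:11312805-11449287 on the plus strand) lie head to head. Acta2 spans chr19:34241090-34255590 on the minus strand, and Bgn spans chrX:73483602-73495933 on the plus strand. Counts are summed over whole genes, so these values do not tell exons or transcripts apart.

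Promoter sequence from RefSeq (build GRCm38.p6, 250 bases before to 50 after each annotated start) was held for 22 of the 34 genes. The 4 windows shown are of a fibrillar collagen chain, of the contractile gene Acta2, and of the head-to-head pair Col4a1 and Col4a2, chosen after their values were seen: Col1a2 varied with the other genes across libraries, Acta2 and Col4a1 were changed by IL-4 in wild-type cells, and Col4a2 shares its promoter region with Col4a1. Capitals mark CCAAT on either strand (ATTGG on the other) and, in Col1a2 and Acta2, a CArG box, the element that serum response factor is known to bind, with 1 mismatch in its core. The windows are chr6:4505368-4505667 on the plus strand, chr19:34255324-34255623 on the minus strand, chr8:11312777-11313076 on the minus strand and chr8:11312555-11312854 on the plus strand.
Col1a2: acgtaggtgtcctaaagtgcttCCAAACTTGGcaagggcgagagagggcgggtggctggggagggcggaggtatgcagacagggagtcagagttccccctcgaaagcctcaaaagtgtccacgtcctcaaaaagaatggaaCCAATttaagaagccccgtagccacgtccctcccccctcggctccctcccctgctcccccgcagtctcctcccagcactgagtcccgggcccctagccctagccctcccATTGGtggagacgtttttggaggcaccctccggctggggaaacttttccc
Acta2: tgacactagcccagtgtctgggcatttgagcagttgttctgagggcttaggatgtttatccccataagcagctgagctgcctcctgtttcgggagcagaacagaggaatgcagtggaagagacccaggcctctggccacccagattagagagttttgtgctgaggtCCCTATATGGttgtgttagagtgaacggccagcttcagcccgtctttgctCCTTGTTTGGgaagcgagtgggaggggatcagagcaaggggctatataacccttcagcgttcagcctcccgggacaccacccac
Col4a1: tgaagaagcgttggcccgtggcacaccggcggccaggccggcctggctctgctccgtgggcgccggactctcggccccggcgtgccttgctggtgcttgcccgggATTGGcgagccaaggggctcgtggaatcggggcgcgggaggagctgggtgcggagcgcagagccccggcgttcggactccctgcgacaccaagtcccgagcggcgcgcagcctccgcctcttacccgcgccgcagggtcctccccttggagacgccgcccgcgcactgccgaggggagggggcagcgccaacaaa
Col4a2: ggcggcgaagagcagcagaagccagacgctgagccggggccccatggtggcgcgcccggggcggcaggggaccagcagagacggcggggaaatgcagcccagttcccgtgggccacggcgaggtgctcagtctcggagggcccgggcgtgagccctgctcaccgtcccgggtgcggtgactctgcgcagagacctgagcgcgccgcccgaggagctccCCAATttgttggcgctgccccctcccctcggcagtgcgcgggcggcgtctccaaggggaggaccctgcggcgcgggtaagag
CCAAT, searched on both strands, was in 7 of the 22 genes and in 37.4% of all 32851 windows. A CArG box without mismatch was in 0 of the 22 and in 1.63% of all windows, and with 1 core mismatch, which counts the exact form as well, in 5 of the 22 (Acta2, Col1a2, Col6a3, Fbln2 and Ltbp1) and in 9.98% of all windows. TATAAA was in Col3a1 alone and in 13.6% of all windows. Acta2 held 2 such CArG boxes, whose first bases lie 84 and 34 bases before its start. The Col4a1 and Col4a2 windows overlap on opposite strands, since these genes are transcribed away from each other. These matches are descriptions of letters in the windows.

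The 34 genes differed widely in level within 1 group. In wild-type M0 cells, on the GETMM scale, the highest level was that of Col18a1 (42.1 ± 10.5, SD, n = 6), followed by Acta2 (26.9 ± 4.17), Bgn (23.0 ± 6.36) and Tagln (15.2 ± 3.33). Acta2 and Bgn did not differ beyond their spread. Loxl3 (12.5), Lox (11.6), Col1a2 (9.91), Col4a1 (9.44) and Grem1 (9.38) followed, and Col1a1 stood at 5.81. The lowest of those tested were Fbn1 (1.40), Col5a1 (1.34), Pdgfra (1.20), Pdgfrb (1.18) and Loxl1 (1.14).

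In knockout M0 cells the order by GETMM was different. Col18a1 again led (73.1 ± 16.9), Loxl3 came next (9.05 ± 1.81), and then Acta2 (2.62 ± 1.32), Ltbp1 (2.41 ± 0.603), Tagln (1.96 ± 0.793) and Bgn (1.93 ± 0.858). All other members were below 1.5 GETMM there, and Col1a1 stood at 0.465 ± 0.369.

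Col14a1, Lum and Igfbp3 did not reach the count filter. Col14a1, a fibril-associated collagen, had 10, 16, 5 and 11 counts summed over the 6 libraries of knockout M2, knockout M0, wild-type M2 and wild-type M0 cells. Lum, the fibril-spacing proteoglycan lumican, had 2, 0, 8 and 1 counts in the same order. Igfbp3, which binds insulin-like growth factors, had 1, 3, 10 and 10 counts. At this depth differences in these 3 genes were not detectable with any precision.

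**Figure D1:**
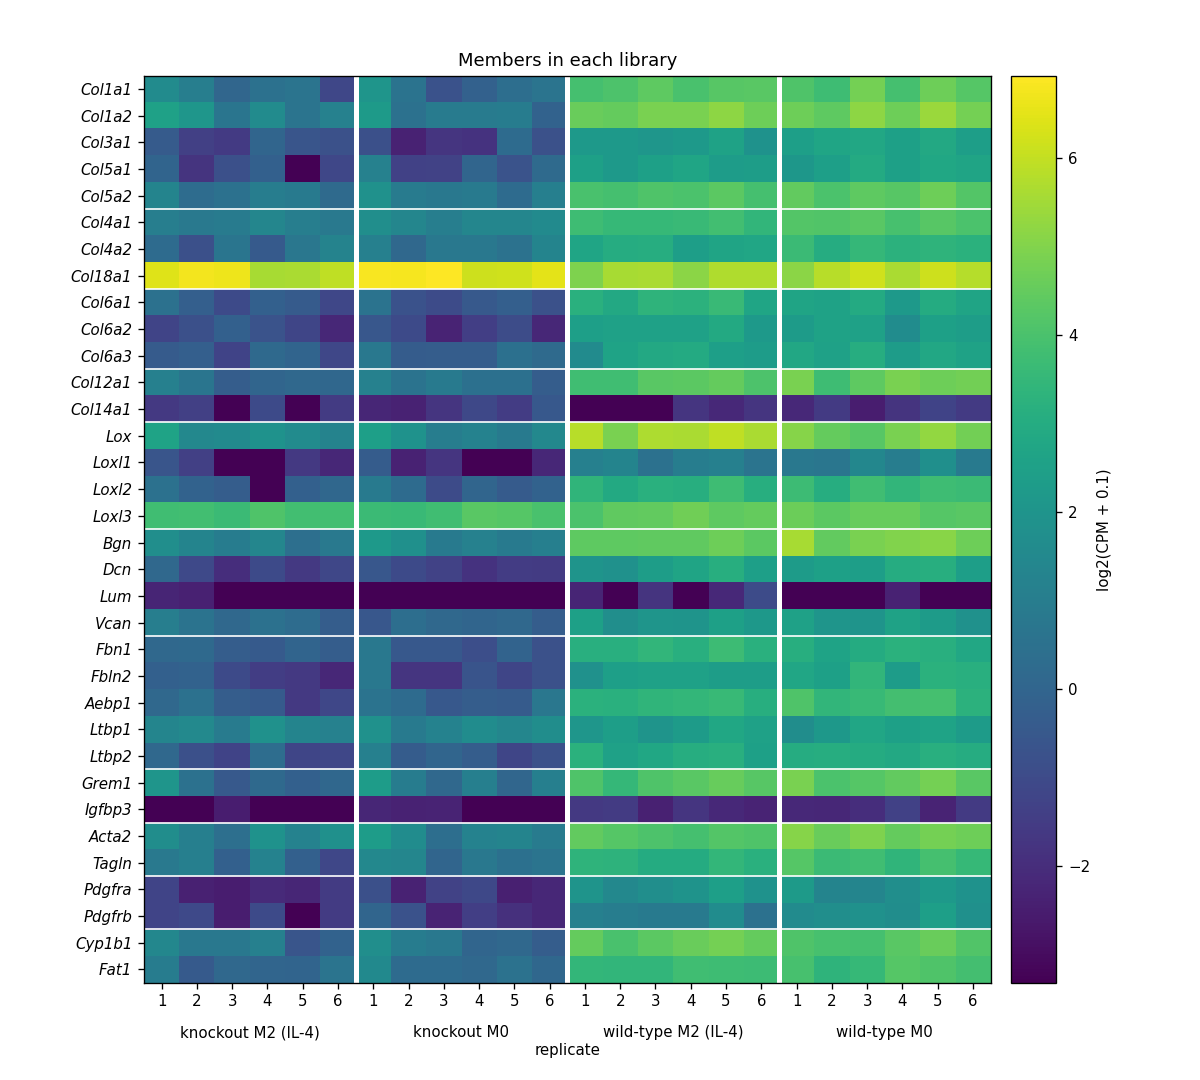
Each row is 1 of the 34 genes in the order of their roles and each column 1 library, coloured by log2(CPM + 0.1), with knockout M2, knockout M0, wild-type M2 and wild-type M0 libraries from left to right. All genes but Col18a1, Loxl3, Ltbp1 and the 3 near 0 counts are clearly darker in the 12 knockout columns, and the first column of each knockout group is brighter than the other 5 for many of them.

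Between the genotypes, 29 of the 31 measured genes with IL-4 and 28 without it had all 6 knockout libraries below all 6 wild-type libraries, where 2.54% and 2.50% of the 12797 genes did. These counts describe how the list was chosen. The median log2 fold change of knockout over wild type was -3.41 with IL-4 (middle 50% from -3.64 to -2.93) and -3.39 without (-3.71 to -2.89), beside 0.0060 and -0.0069 over all genes tested. Within replicates 1 to 3 alone and replicates 4 to 6 alone, the counts were 30 and 30 of 31 with IL-4 and 29 and 29 without. In the labels the library numbers of replicates 4 to 6 end in 25 to 36. Those of replicates 1 to 3 end in 13 to 24, apart from 3 libraries ending in 68, 69 and 70. Without knockout culture 7 the counts were 29 with IL-4 and 29 without.

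In the fibrillar collagens, both chains of type I collagen, the main protein of tendon, bone and scar, were low in knockout cells. Col1a1 lay at 0.361 to 3.01 CPM (median 1.38) in knockout M2 libraries, against 14.8 to 20.8 CPM (median 18.04) in wild-type M2 libraries, and at 0.504 to 3.94 CPM (median 1.29) in knockout M0 against 13.4 to 27.5 CPM (median 18.04) in wild-type M0 libraries. Col1a2 lay at 1.46 to 5.80 CPM (median 2.58) in knockout M2 against 22.7 to 36.1 CPM (median 27.4) in wild-type M2, and at 0.842 to 4.76 CPM (median 1.81) in knockout M0 against 20.6 to 41.6 CPM (median 26.4) in wild-type M0 libraries. In neither state did the genotypes overlap, and the log2 fold changes were -3.56 with IL-4 and -3.70 without for Col1a1 and -3.22 with IL-4 and -3.85 without for Col1a2. Col3a1, the chain of type III collagen of soft tissue, averaged 0.524 ± 0.252 CPM in knockout M2 against 4.52 ± 0.734 in wild-type M2 cells, and 0.422 ± 0.369 in knockout M0 against 6.17 ± 0.857 in wild-type M0 cells. Col5a1 and Col5a2, chains of the type V collagen that starts fibrils, had log2 fold changes of -3.57 with IL-4 and -2.80 without and of -3.38 with IL-4 and -3.39 without. Their highest knockout library, replicate 1 of M0 cells, held 2.20 CPM of Col5a1 and 3.596 CPM of Col5a2, and the lowest wild-type M0 libraries held 4.27 and 16.3 CPM.

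The basement membrane collagens did not go one way. Col4a1 and Col4a2 encode the chains of the network-forming type IV collagen found in all basement membranes. Col4a1 lay at 1.68 to 2.48 CPM (median 1.91) in knockout M2 against 10.6 to 13.9 CPM (median 12.1) in wild-type M2, and at 2.02 to 3.25 CPM (median 2.54) in knockout M0 against 15.4 to 19.8 CPM (median 17.9) in wild-type M0 libraries. Its log2 fold changes of -2.66 with IL-4 and -2.76 without, and those of Col4a2 (-2.43 with IL-4 and -2.59 without), were smaller in size than the median of the list. Col18a1 encodes the type XVIII collagen whose C-terminal fragment is endostatin. It was higher in knockout cells on average, at 48.7 to 108 CPM (median 74.4) in knockout M2 against 31.2 to 52.6 CPM (median 48.5) in wild-type M2, and 70.6 to 122 CPM (median 101) in knockout M0 against 35.6 to 72.2 CPM (median 56.3) in wild-type M0 libraries. The genotypes overlapped in both states, its log2 fold change was 0.77 with IL-4 and 0.77 without, and it was the only one of the 31 with a positive value. Knockout replicates 1 to 3 and 4 to 6 separated in this gene. With IL-4 the first set held 87.3, 108 and 101 CPM, whereas the other held 48.7, 50.2 and 61.5 CPM. Without IL-4 the first set held 115, 112 and 122 CPM, and the other 70.6, 73.3 and 90.5 CPM. Wild-type libraries showed no such gap between their replicates 1 to 3 and 4 to 6.

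The 3 chains of type VI collagen, which forms beaded filaments around cells, were all low in knockout cells. Col6a1 averaged 0.717 ± 0.354 CPM in knockout M2 against 9.07 ± 2.09 in wild-type M2 cells, Col6a2 0.428 ± 0.223 against 5.77 ± 0.951, and Col6a3 0.673 ± 0.290 against 5.69 ± 1.66. Without IL-4 the log2 fold changes were -3.20 for Col6a1, -3.93 for Col6a2 and -2.68 for Col6a3. Col12a1, a fibril-associated collagen, lay at 0.705 to 2.12 CPM (median 0.985) in knockout M2 against 13.6 to 22.8 CPM (median 18.1) in wild-type M2 libraries, with log2 fold changes of -3.88 with IL-4 and -4.07 without.

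Among the lysyl oxidases, which cross-link collagen and elastin, 3 of 4 were low in knockout cells. Lox lay at 2.28 to 6.02 CPM (median 2.96) in knockout M2 against 29.3 to 61.4 CPM (median 50.5) in wild-type M2, and at 1.78 to 5.45 CPM (median 2.45) in knockout M0 against 19.0 to 38.6 CPM (median 28.1) in wild-type M0 libraries. Loxl1 averaged 0.186 ± 0.261 CPM in knockout M0 against 2.13 ± 0.716 in wild-type M0 cells, and Loxl2 0.945 ± 0.454 against 11.98 ± 2.16. Without replicate 1, at 0.696 CPM, the Loxl1 mean of knockout M0 cells was 0.0844 ± 0.0859 CPM (n = 5). Loxl3 differed least among them. It lay at 12.5 to 16.96 CPM (median 13.98) in knockout M2 against 16.3 to 26.3 CPM (median 21.7) in wild-type M2, and at 12.3 to 19.9 CPM (median 14.8) in knockout M0 against 18.9 to 24.3 CPM (median 21.9) in wild-type M0 libraries. These ranges overlapped in both states, and the log2 fold changes were -0.61 with IL-4 and -0.48 without.

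Of the proteoglycans, Bgn and Dcn encode biglycan and decorin, which bind collagen fibrils and TGF-beta. Bgn lay at 1.23 to 3.23 CPM (median 2.12) in knockout M2 against 20.1 to 25.4 CPM (median 21.0) in wild-type M2, and at 1.71 to 4.64 CPM (median 2.11) in knockout M0 against 22.1 to 47.8 CPM (median 30.5) in wild-type M0 libraries. Dcn lay at 0.157 to 1.00 CPM (median 0.369) in knockout M2 against 3.56 to 8.47 CPM (median 5.32) in wild-type M2 libraries, and its log2 fold changes, -3.70 with IL-4 and -4.25 without, rested on 23 and 19 summed knockout counts. Vcan encodes versican, a large hyaluronan-binding proteoglycan that macrophages and monocytes are also known to make. It averaged 1.26 ± 0.436 CPM in knockout M2 against 4.43 ± 0.969 in wild-type M2 cells, and 0.906 ± 0.224 in knockout M0 against 4.66 ± 1.02 in wild-type M0 cells. Its log2 fold changes of -1.79 with IL-4 and -2.33 without were smaller in size than those of Bgn and Dcn, without overlap of the genotypes.

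Of the 5 microfibril and matrix glycoproteins, 4 had no overlap of the genotypes in either state. Fbn1, fibrillin-1 of the microfibrils, averaged 0.836 ± 0.165 CPM in knockout M2 against 9.91 ± 1.72 in wild-type M2 cells. Fbln2, fibulin-2, averaged 0.438 ± 0.305 against 5.15 ± 0.828 CPM, and Aebp1, a collagen-binding secreted protein, 0.711 ± 0.404 against 10.0 ± 1.23 CPM, in the same groups. In knockout M0 cells the Fbln2 mean was 0.565 ± 0.538 CPM, and 0.353 ± 0.157 CPM without replicate 1. Without IL-4 the log2 fold changes of these genes were -3.36, -3.78 and -3.72. Ltbp1 and Ltbp2 belong to the latent TGF-beta binding protein family. Ltbp2 averaged 0.873 ± 0.627 CPM in knockout M0 against 8.02 ± 0.528 in wild-type M0 cells, whereas Ltbp1 averaged 2.71 ± 0.689 against 5.10 ± 1.27. The Ltbp1 ranges overlapped without IL-4, at 1.70 to 3.596 CPM (median 2.81) in knockout M0 against 3.14 to 6.64 CPM (median 5.19) in wild-type M0 libraries. Culture 7 alone made this overlap, and the other 5 knockout M0 libraries reached at most 3.13 CPM. With IL-4 the ranges did not overlap, and the Ltbp1 log2 fold change was -1.03.

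The remaining genes encode signalling and contractile proteins. Grem1, a secreted BMP antagonist, lay at 0.627 to 4.01 CPM (median 1.00) in knockout M2 against 11.2 to 23.5 CPM (median 18.16) in wild-type M2, and at 0.935 to 4.99 CPM (median 1.97) in knockout M0 against 16.0 to 28.9 CPM (median 20.8) in wild-type M0 libraries. Acta2, the smooth muscle actin of myofibroblasts, lay at 1.25 to 3.65 CPM (median 2.68) in knockout M2 against 14.8 to 22.1 CPM (median 17.7) in wild-type M2, and at 1.21 to 4.99 CPM (median 2.32) in knockout M0 against 22.9 to 33.4 CPM (median 26.5) in wild-type M0 libraries. Tagln, the actin-binding transgelin, averaged 1.32 ± 0.773 CPM in knockout M2 against 9.24 ± 1.25 in wild-type M2 cells, and 1.74 ± 0.6999 in knockout M0 against 13.6 ± 3.02 in wild-type M0 cells. Without replicate 1 the Grem1 mean of knockout M2 cells was 0.947 ± 0.263 CPM, against 1.46 ± 1.27 with it. No knockout library of these 3 genes reached the lowest wild-type library in its state. Pdgfra and Pdgfrb encode receptors for platelet-derived growth factors that mark mesenchymal cells. Pdgfra had the most negative value with IL-4, -4.46, from 9 summed counts in knockout M2 against 220 in wild-type M2 cells, and -3.83 without IL-4, from 14 in knockout M0 against 199 in wild-type M0 cells. Pdgfrb averaged 0.237 ± 0.164 CPM in knockout M2 against 2.00 ± 0.607 in wild-type M2 cells, and 0.348 ± 0.319 in knockout M0 against 3.64 ± 0.870 in wild-type M0 cells. Cyp1b1, a cytochrome P450, had log2 fold changes of -3.82 with IL-4 and -3.55 without, and Fat1, an atypical cadherin, of -3.41 with IL-4 and -3.40 without.

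**Figure D2:**
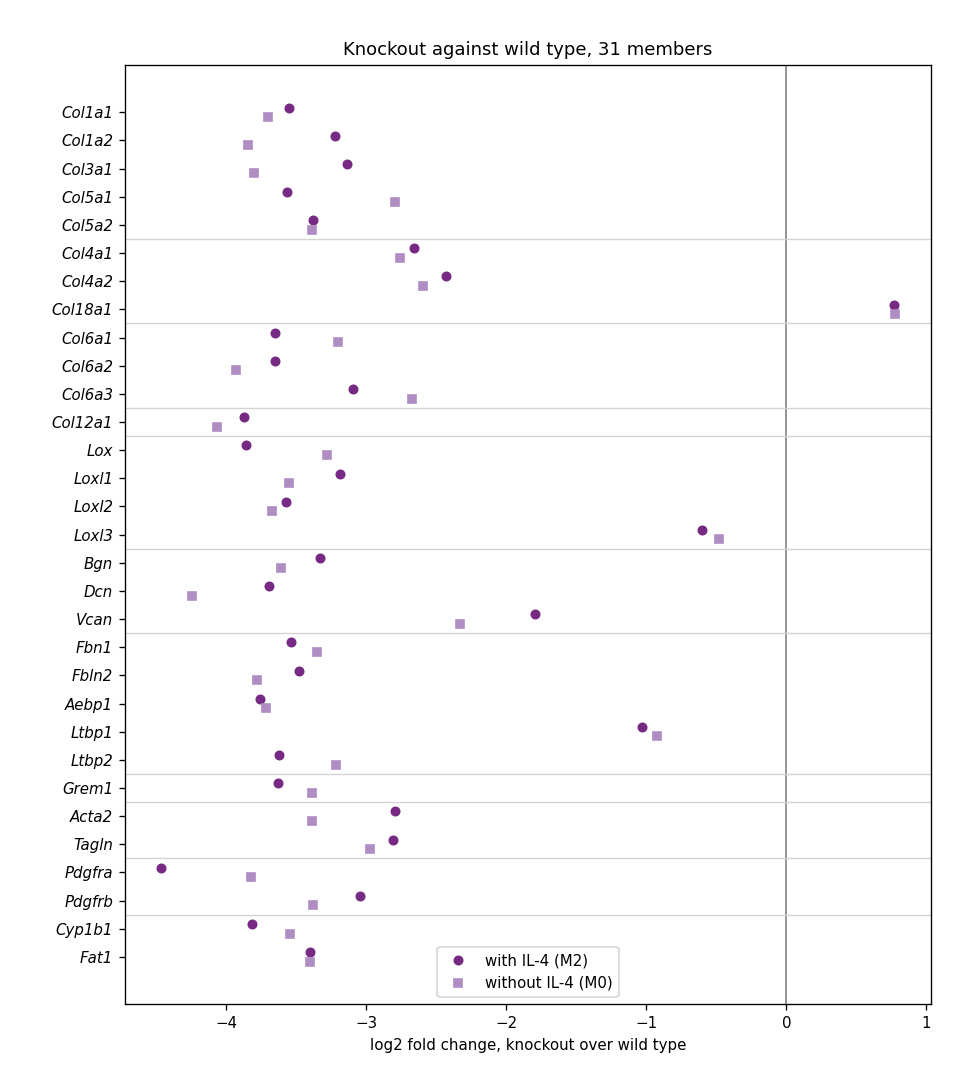
Points give the log2 fold change of knockout over wild type for each of the 31 measured genes, circles with IL-4 (M2) and squares without (M0), and 0 is the grey line. Most genes lie between -4.46 and -2.33 in both states, and Ltbp1, Loxl3, Vcan with IL-4 and Col18a1 lie to the right of them.

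Some markers of mesenchymal stromal cells and of smooth muscle and pericytes were also lower in knockout cells. Of 17 mesenchymal stromal and fibroblast markers outside the list, 7 passed the count filter. Of the 7, 6 had all knockout libraries below all wild-type libraries in each state, where 2.54% of all genes with IL-4 and 2.50% without did. The filter also keeps genes with counts in wild-type cells alone, so in this and other lists passing it favours such differences. The list was also chosen with earlier results known. The median log2 fold change of the 7 was -3.05 with IL-4 and -3.45 without. The summed level of the 17, in CPM without TMM scaling, was 16.5 to 24.1 in knockout M2, 15.8 to 25.1 in knockout M0, 40.5 to 84.0 in wild-type M2 and 44.7 to 79.7 in wild-type M0 libraries. Pdpn, the podoplanin of lymph node stroma that some macrophages also carry, was the most abundant of these and overlapped between genotypes, at 18.1 ± 3.12 CPM in knockout M2 against 27.5 ± 7.87 in wild-type M2 cells. Cxcl12, a chemokine of marrow stroma, averaged 0.257 ± 0.200 CPM in knockout M0 against 7.01 ± 1.70 in wild-type M0 cells, and Cdh11, a mesenchymal cadherin, 1.01 ± 0.712 against 10.4 ± 3.13. Of 12 smooth muscle and pericyte markers 3 passed the filter (Actg2, Myl9 and Tpm2), each without overlap and lower in knockout cells in both states, and the summed level of the 12 was 1.77 to 3.20, 1.93 to 4.18, 8.90 to 13.2 and 13.5 to 22.0 CPM in knockout M2, knockout M0, wild-type M2 and wild-type M0 libraries. The part of a stromal cell share in the results was not tested, and in bulk RNA fewer cells of a type and less RNA per cell cannot be told apart.

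Markers of other cell types were at or near 0, or few of them separated the genotypes. Krt8, Krt18 and Krt14 of the 6 epithelial markers, Lep of the 6 adipocyte markers and Dmp1 of the 12 osteoblast and chondrocyte markers were at 0 counts in all 24 libraries. Summed over the list, epithelial markers were at 0.309 to 1.06, 0.103 to 1.09, 0 to 0.973 and 0 to 0.860 CPM, and adipocyte markers at 0.445 to 0.710, 0 to 0.569, 0.202 to 0.922 and 0 to 0.577, in knockout M2, knockout M0, wild-type M2 and wild-type M0 libraries. Of the osteoblast and chondrocyte list, which summed to 11.6 to 16.0, 10.5 to 12.8, 11.9 to 14.05 and 10.8 to 15.1 CPM, 1 gene passed the filter, Runx2, at 10.8 ± 0.659 CPM in knockout M0 against 11.2 ± 2.31 in wild-type M0 cells. Runx2 made up most of this sum, which thus says little of the other genes of the list. Below the filter, Sox9 had 1, 4, 17 and 28 summed counts in the same order of groups. Comp had 18, 10, 19 and 19 counts, and Alpl 1, 2, 2 and 4. Of 12 endothelial markers 2 passed, Vwf and Kdr, the list summed to 172 to 259.7, 88.9 to 104, 124 to 181 and 51.9 to 73.9 CPM, and the defining cadherin Cdh5 had 14, 28, 39 and 75 summed counts in knockout M2, knockout M0, wild-type M2 and wild-type M0 cells. Neutrophil markers summed to 76.2 to 142, 95.4 to 171, 96.6 to 268 and 163 to 236 CPM in those groups, and 0 of the 6 measured separated the genotypes. Vwf made up most of the endothelial sum and had all knockout M0 libraries above all wild-type M0 libraries. The 10 macrophage markers summed to 11464 to 13684, 12686 to 15323, 13958 to 17969.6 and 14484 to 19602 CPM. In 8 of the 10 the genotypes overlapped in each state, the exceptions being Itgam, higher in knockout cells in both, Lyz2, lower with IL-4, and Mertk, lower without. Without overlap, 325 of all 12797 genes were lower and 139 higher in knockout cells with IL-4, and 320 and 125 without it. The macrophage sum itself did not overlap between genotypes with IL-4. Lyz2 made up most of that sum, at 8088 ± 605 CPM in knockout M2 against 10171 ± 1194 in wild-type M2 cells with TMM scaling.

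The effect of IL-4 was tested with edgeR's quasi-likelihood test, adjusted over all 12797 genes. It does not use the contrast that chose the list, although the same libraries enter both. In knockout cells 0 of the 31 genes passed an adjusted p of 0.05, where 23.6% of all genes did. With only the knockout libraries in the fit, 17 of the 31 passed the count filter and 0 were called. The others were kept through their wild-type counts, so 0 of 31 does not show that IL-4 had no effect. Only Col4a1 had an unadjusted p under 0.05 there, with a log2 fold change of -0.43 (SE 0.13, adjusted p = 0.0603), at 1.68 to 2.48 CPM (median 1.91) in knockout M2 against 2.02 to 3.25 CPM (median 2.54) in knockout M0 libraries. DESeq2 called 0 as well, and limma on GETMM after the count filter called 1. Under the other settings, given at the end, the count was at most 2. The median log2 fold change of the 31 genes was -0.25 in knockout cells, beside -0.0038 over all genes, and 20 of 31 were negative. With a median of 11.3 counts per library for these genes in knockout M2 and 13.5 in knockout M0 cells, the standard errors of the log2 fold changes ran from 0.12 for Loxl3 to 0.73 for Loxl1, against 0.094 for Col4a1 to 0.40 for Loxl1 in wild-type cells.

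In wild-type cells 1 of the 31 genes rose with IL-4, where 8.49% of all genes did, and 3 fell, where 7.95% did. The gene that rose was Lox, which starts collagen cross-links, with a log2 fold change of 0.81 (SE 0.21, adjusted p = 0.00839). The wild-type M2 libraries lay at 29.3 to 61.4 CPM (median 50.5) and the wild-type M0 libraries at 19.0 to 38.6 CPM (median 28.1), and only replicate 2 of the M2 libraries, at 29.3 CPM, fell within the M0 range. Col4a1 fell by the clearest margin, at 10.6 to 13.9 CPM (median 12.1) in wild-type M2 against 15.4 to 19.8 CPM (median 17.9) in wild-type M0 libraries without overlap, a log2 fold change of -0.53 (SE 0.094, adjusted p = 2.06e-04). Acta2 fell without overlap as well, at 14.8 to 22.1 CPM (median 17.7) in wild-type M2 against 22.9 to 33.4 CPM (median 26.5) in wild-type M0 libraries, with -0.61 (SE 0.18, adjusted p = 0.0230). Bgn fell with -0.56 (SE 0.18, adjusted p = 0.0298), and its ranges overlapped. The calls of Acta2 and Bgn did not pass without the 3 libraries numbered apart from the others in the labels (adjusted p = 0.0545 for each), with log2 fold changes of -0.58 for Acta2 and -0.57 for Bgn. The call of Lox did not pass in replicates 1 to 3 alone (adjusted p = 0.186), with 0.89. Under the other settings, given at the end, the count of calls, 4 here, lay between 1 and 11.

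Several neighbours of these genes missed the threshold with like values. Col4a2 had -0.56 (SE 0.20, adjusted p = 0.0548) in wild-type cells, Tagln -0.56 (SE 0.22, adjusted p = 0.0798), Pdgfrb -0.87 (SE 0.31, adjusted p = 0.0577) and Col12a1 -0.45 (SE 0.18, adjusted p = 0.0962). In all, 10 of the 31 (32.3%) had an unadjusted p under 0.05, near the 28.7% of all genes that did. Chains of 1 protein did not all have the same sign: Col6a1 had 0.49 (SE 0.21, adjusted p = 0.113) and Col6a3 -0.19 (SE 0.22, adjusted p = 0.601). The chains of type I collagen were near 0, with -0.14 (SE 0.25, adjusted p = 0.763) for Col1a1 and -0.088 (SE 0.24, adjusted p = 0.857) for Col1a2. Among the other lysyl oxidases, Loxl1 had -0.19 (SE 0.40, adjusted p = 0.794), Loxl2 -0.34 (SE 0.22, adjusted p = 0.323) and Loxl3 -0.012 (SE 0.11, adjusted p = 0.961). The median over the 31 genes was -0.21 in wild-type cells, beside -0.016 over all genes, and 25 of 31 were negative.

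The difference between the IL-4 responses, knockout minus wild type, passed for 0 of the 31 genes and for 0.00% of all genes by edgeR; DESeq2 called 0 of the 31. An unadjusted p under 0.05 was found for 0 of the 31 and for 390 of all 12797 genes. For Lox the difference was -0.58 (SE 0.37, adjusted p = 1.00), from a log2 fold change of 0.22 in knockout and 0.81 in wild-type cells, and for Acta2 it was 0.59 (SE 0.32, adjusted p = 1.00), from -0.022 in knockout and -0.61 in wild-type cells. These values do not show that the responses were alike.

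**Figure D3:**
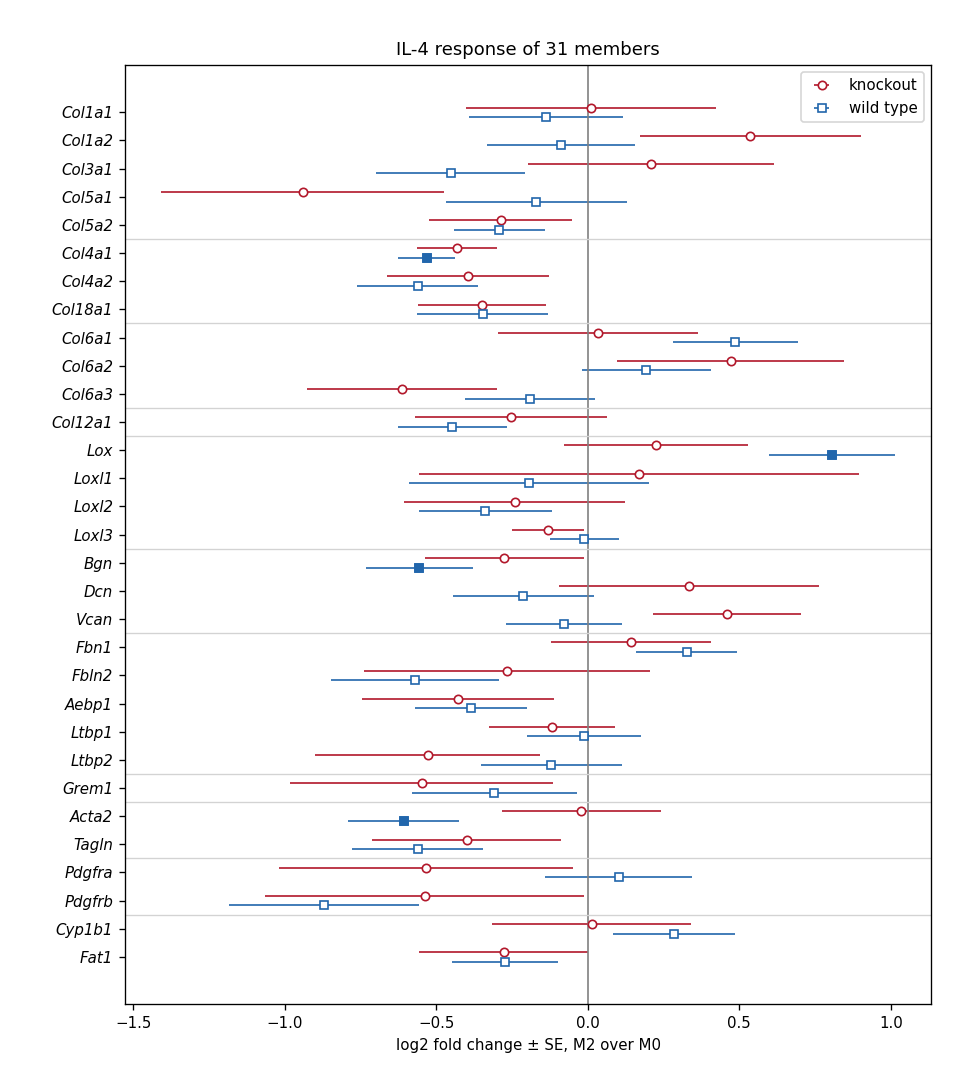
Points give the log2 fold change of M2 over M0 for each of the 31 genes with its SE, circles for knockout and squares for wild-type cells, filled where the adjusted p was under 0.05. Lox, at 0.81, is the filled square on the right, and Col4a1, Bgn and Acta2, between -0.61 and -0.53, are the filled squares on the left; no circle is filled.

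Ratios of counts within a library need no scaling. The ratio of Lox to Acta2 restates the calls of both genes in that form. The ratio of Lox to Acta2 counts was 2.71 in wild-type M2 cells (1.57 to 3.42 in single libraries) and 1.02 in wild-type M0 cells (0.621 to 1.39), without overlap. In knockout cells it was 1.35 with IL-4 (0.655 to 2.31) and 1.11 without (0.750 to 1.58), with overlap. The ratio of Lox to Col1a2 was 1.76 in wild-type M2 (1.29 to 2.37) against 0.925 in wild-type M0 cells (0.519 to 1.33), with overlap, and 1.15 in knockout M2 against 1.41 in knockout M0 cells.

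Col1a1 to Col1a2 counts stood at 0.512 in knockout M2 (95% interval 0.390 to 0.668), 0.727 in knockout M0 (0.546 to 0.965), 0.651 in wild-type M2 (0.602 to 0.704) and 0.670 in wild-type M0 cells (0.621 to 0.722). The intervals are exact binomial ones on summed counts and cover counting error only. The ratio of Col4a1 to Col4a2, likewise chains of 1 protein, was 1.53, 1.58, 1.76 and 1.76 in the same order of groups, and that of the contractile genes Tagln and Acta2 was 0.517, 0.662, 0.515 and 0.495. The Col5a1 to Col5a2 ratio was 0.278, 0.439, 0.323 and 0.301, and Col6a1 to Col6a2 was 1.54, 2.16, 1.56 and 1.29. For each of these 5 ratios the single libraries of knockout and wild-type cells overlapped within each state. Knockout libraries held few counts of some chains, 1 to 10 of Col6a2 and 0 to 8 of Col5a1 in knockout M2 cells. Counting error alone spreads ratios of such counts widely, so the overlap does not show that the ratios were alike.

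**Figure D4:**
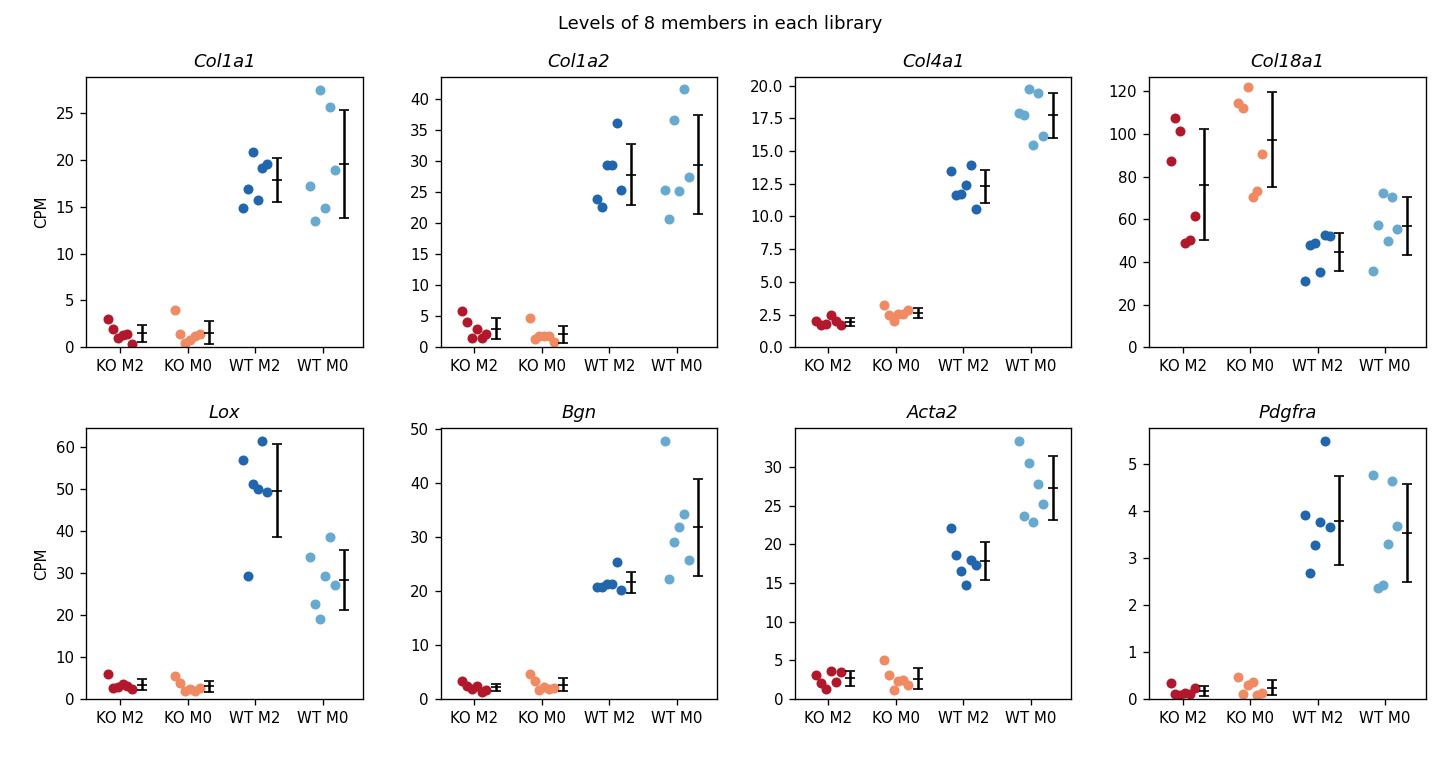
Each panel plots 1 gene in CPM, with a point per library and the mean ± SD (n = 6) beside it, for knockout M2, knockout M0, wild-type M2 and wild-type M0 cells from left to right. Col18a1 is the panel in which knockout libraries are high, up to 122 CPM, and Lox and Acta2 are shifted in opposite directions by IL-4 in wild-type cells.

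Within a group, most of the genes varied together from library to library. For each of the 31 genes the Pearson r of its log2 CPM with the mean of the other 30 was taken over the 6 libraries of a group, as a description with no test. Its median was 0.57 in knockout M2, 0.76 in knockout M0, 0.62 in wild-type M2 and 0.55 in wild-type M0 libraries. For the 12766 other genes the median r with the members' mean was 0.039, -0.00097, -0.014 and -0.0048 in the same order of groups. An r above 0.5 was found, in that order, in 19, 25, 20 and 18 of the 31 genes (61.3%, 80.6%, 64.5% and 58.1%), against 14.3%, 10.99%, 19.1% and 10.2% of other genes. The points of a group share 6 libraries and their scaling, and the members share whatever varies between those cultures.

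In knockout M0 libraries the joint movement rested on culture 7. Without it the median r over the 5 other libraries was 0.0068, and in knockout M2 libraries without culture 7 it was 0.53. Most members have few counts there, a median of 13.5 and 11.3 per library, which adds counting error to each value. In wild-type cells, where the median was 92.5 counts in M2 and 116 in M0 libraries, leaving out culture 5, whose libraries were the highest, gave a median r of 0.36 in wild-type M2 and 0.44 in wild-type M0 libraries.

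The M2 and M0 libraries of 1 culture number deviated from their group means in the same direction in the cultures that deviated most. In knockout culture 7 the mean deviation over the 31 genes was 0.66 on the log2 scale in the M2 and 0.88 in the M0 library. There 16 of the 31 genes in M2 and 25 in M0 cells had their highest knockout value of that state, whereas 12.5% and 12.8% of other genes did. In knockout culture 9 it was -0.29 and -0.34, and in cultures 8, 10, 11 and 12 it lay between -0.30 and 0.13 in M2 and between -0.19 and -0.065 in M0 libraries. In wild-type culture 5 it was 0.28 in the M2 and 0.27 in the M0 library, with 27 and 30 of the 31 genes above their group mean. Wild-type culture 2 was lowest, at -0.15 in the M2 and -0.25 in the M0 library, and the other wild-type cultures lay between -0.083 and 0.073. The mean deviation of all other genes was between -0.027 and 0.024 in every library. The labels do not say what a culture number stands for beyond its use in both states.

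**Figure D5:**
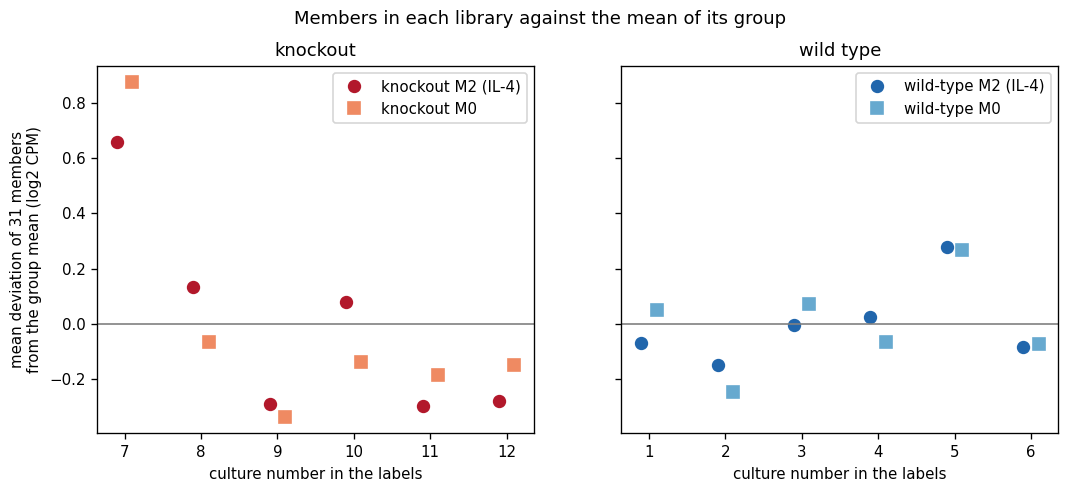
Points give, for each library, the mean deviation of the 31 genes from the mean of its group in log2 CPM, by culture number, in knockout cells on the left and wild-type cells on the right, circles for M2 and squares for M0. Knockout culture 7 stands at 0.66 in M2 and 0.88 in M0 cells, and wild-type culture 5 at 0.28 and 0.27.

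The summed level of the members without Col18a1 gives the same picture in CPM without TMM scaling. It was 63.6 in knockout M2 replicate 1 and 88.2 in knockout M0 replicate 1, and the other knockout libraries lay between 36.5 and 55.8. Wild-type M2 libraries lay at 307 to 447 and wild-type M0 libraries at 327 to 479. Every knockout library thus lay below every wild-type library. The marker sums moved in part with it. Smooth muscle and pericyte markers were highest among knockout libraries in culture 7, 3.20 in the M2 and 4.18 in the M0 library. Among wild-type libraries they were highest in culture 5 in M2 cells, 13.2, but in culture 1 in M0 cells, 22.0, where culture 5 had 14.8. Mesenchymal markers were highest among knockout libraries in culture 7 in M2 cells, 24.1, but in culture 12 in M0 cells, 25.1, where culture 7 had 22.5. Among wild-type libraries they were highest in culture 5 in both states, 84.0 in the M2 and 79.7 in the M0 library. In knockout cells Pdpn, which some macrophages also carry, made up most of the mesenchymal sum. It averaged 18.1 CPM in knockout M2 and 14.9 in knockout M0 cells with TMM scaling, where the sums averaged 20.6 and 19.6. The knockout sum thus says little of the other mesenchymal markers. The part of the marked cells in this movement was not tested.

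Members differed in how closely they followed the rest. Over deviations from the 4 group means in all 24 libraries, r with the mean of the other members was 0.88 for Grem1, 0.85 for Col1a2, 0.84 for Col6a1 and 0.81 for Bgn. It was -0.18 for Loxl3, -0.17 for Col4a2, 0.15 for Vcan, 0.21 for Col3a1 and 0.24 for Col18a1, and the median was 0.61, beside 0.0053 over other genes. Of these, Loxl3, Vcan, Col4a2 and Col18a1 also had smaller or opposite genotype differences than the median of the list. Across the 31 genes, Spearman's rho between this r and the log2 fold change of knockout over wild type was -0.48 with IL-4 and -0.38 without. Leaving out Col18a1 it was -0.43 and -0.33. The list was chosen on these same fold changes and genes are not independent replicates, so these values are a description only.

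Among the 5 genes outside the list that followed the mean of the members most closely over the 24 libraries were Tnc (r = 0.87), Serpinh1 (0.76), Kirrel (0.75) and Cyr61 (0.75). Tnc encodes the matrix glycoprotein tenascin-C, and it averaged 1.26 ± 0.527 CPM in knockout M2 against 15.9 ± 2.17 in wild-type M2 cells, and 1.303 ± 0.801 in knockout M0 against 17.5 ± 3.54 in wild-type M0 cells. Serpinh1, the collagen-specific chaperone of the endoplasmic reticulum, averaged 0.925 ± 0.438 CPM in knockout M2 against 8.91 ± 1.76 in wild-type M2 cells, and 1.05 ± 0.301 in knockout M0 against 9.76 ± 2.01 in wild-type M0 cells. Cyr61, a matricellular protein, averaged 0.813 ± 0.320 CPM in knockout M0 against 11.7 ± 2.45 in wild-type M0 cells. Kirrel, a cell adhesion protein, averaged 0.320 ± 0.361 CPM in knockout M0 against 3.09 ± 0.957 in wild-type M0 cells.

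Of 26 enzymes and chaperones that make and process collagen 18 were measured, and 6 of the 18 with IL-4 and 7 without had all knockout libraries below all wild-type libraries, Serpinh1 among them. Of all genes 2.54% with IL-4 and 2.50% without did. The 2 most abundant of the list overlapped between genotypes. P4hb, protein disulfide isomerase and the beta subunit of prolyl 4-hydroxylase, averaged 399 ± 27.8 CPM in knockout M0 against 414 ± 31.1 in wild-type M0 cells, and Ppib, cyclophilin B, 128 ± 8.64 against 122 ± 17.9. With IL-4, 5 of the 18 rose and 2 fell in knockout cells, and 3 rose and 2 fell in wild-type cells, by the same edgeR test. Of all genes 12.2% rose and 11.4% fell in knockout cells, and 8.49% rose and 7.95% fell in wild-type cells. Colgalt1, a collagen galactosyltransferase, rose in both genotypes, with 0.64 (SE 0.08, adjusted p = 7.89e-07) in knockout and 0.53 (SE 0.079, adjusted p = 2.42e-05) in wild-type cells. P3h3, a prolyl 3-hydroxylase, fell in both, with -0.69 (SE 0.089, adjusted p = 1.60e-06) in knockout and -0.43 (SE 0.088, adjusted p = 0.00112) in wild-type cells, and P4ha2, a catalytic subunit of prolyl 4-hydroxylase, fell with -0.69 (SE 0.13, adjusted p = 2.34e-04) in knockout and -0.43 (SE 0.13, adjusted p = 0.0202) in wild-type cells.

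Of 31 other collagen chains 6 were measured, 2 of them (Col8a1 and Col16a1) without overlap and lower in knockout cells in each state. With IL-4, 1 of the 6 fell in knockout cells (Col15a1, -0.86 (SE 0.28, adjusted p = 0.0229)) and 0 passed in wild-type cells, where Col15a1 had -0.63 (SE 0.25, adjusted p = 0.0946). Of 41 other matrix assembly genes 19 were measured, and 10 with IL-4 and 12 without had all knockout libraries below all wild-type libraries. For this list and the other collagen chains, the shares of all genes were 2.54% and 2.50%. By genotype, 1 of the 19 in each rose with IL-4 and 1 fell, by the same test. For all lists of this paragraph, the IL-4 shares over all genes were 12.2% higher and 11.4% lower in knockout cells. In wild-type cells they were 8.49% higher and 7.95% lower. Fn1, fibronectin, rose in both, with 2.89 (SE 0.30, adjusted p = 2.02e-07) in knockout and 1.51 (SE 0.28, adjusted p = 5.21e-04) in wild-type cells, and Lama3, a laminin chain, fell in both, with -1.06 (SE 0.21, adjusted p = 3.84e-04) in knockout and -0.67 (SE 0.22, adjusted p = 0.0343) in wild-type cells. Of the 7 measured mesenchymal markers 0 passed in knockout cells, and 1, the sphingosine-1-phosphate receptor S1pr3, rose in wild-type cells, with 1.64 (SE 0.30, adjusted p = 2.96e-04) and from 208 summed counts in wild-type M2 against 65 in wild-type M0 cells. Among the remaining lists, Vwf, the von Willebrand factor of endothelium and platelets, rose in both genotypes, with 1.26 (SE 0.10, adjusted p = 6.06e-10) in knockout and 1.32 (SE 0.10, adjusted p = 1.11e-09) in wild-type cells, Kdr, a VEGF receptor, fell in knockout cells, with -0.89 (SE 0.21, adjusted p = 0.00181), and Runx2, a bone transcription factor, rose in knockout cells, with 0.39 (SE 0.10, adjusted p = 0.00652). Of the 10 macrophage markers 1 rose (Itgam) and 3 fell (Cd14, Fcgr1 and Aif1) in each genotype, and 0 of the 3 measured smooth muscle and pericyte and 0 of the 6 measured neutrophil markers passed in either genotype by edgeR.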

How the data were processed

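RNA was sequenced as 40 bp single-end reads, per the labels' protocols. Per the submitters' processing notes, CASAVA 2.8.0, RSEM 1.3.0, Bowtie2 2.3.4.1 and edgeR were used with build mm10. The authors deposited expected counts rounded to whole numbers, per the file headers, and GETMM values, a normalised signal scaled for gene length and library. The file columns matched the 24 libraries by label.

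The 12797 genes tested held 99.8% of the counts and passed edgeR's filter with a minimum count of 10. All 4 groups entered 1 quasi-likelihood fit (edgeR 4.0.16, R 4.3.3, TMM), with Benjamini-Hochberg adjustment over all genes and a threshold of 0.05. It gave the effect of IL-4 in knockout and in wild-type cells and the difference between them. The fit was tested on simulated data drawn from the mean of each gene over all 24 libraries. That simulation does not cover genes that, like most members, have low counts in knockout cells alone. Alternatives used DESeq2 1.42.0 and limma 3.58.1 and other filters, scalings and subsets of libraries. Levels between 1 gene and another were set on GETMM only. The log2 CPM behind the joint movement and the deviations used a prior count of 1. Each SE is the size of the log2 fold change divided by the square root of the quasi-likelihood F. These SE values are approximate where counts are low. Replicate files of a group differed by more than sampling noise (lowest chi-square per degree of freedom 2.62).

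The members and lists were chosen with earlier results of these data known. All members were named; of each other list, up to 4 genes by mean GETMM and those past the threshold with IL-4; and the 5 genes most like the members, of which 1 is not reported here. Markers at 0 counts, genes that separated the genotypes and sequences shown were picked after their values were seen. Promoters of Col1a1 and Tagln were among those not used here. The labels give no strand for counting, so reads of overlapping antisense genes cannot be told apart.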

Additional observations from a re-analysis of the deposited data

Results flagged for a closer look

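In 17 of 124 combinations of gene and group, 1 library stood beyond Dixon's 95% critical value, where chance flags about 1 in 20 groups, and the genes are not independent of each other. Of these, 12 were in knockout culture 7. In knockout M0 replicate 1 the values were 3.94 CPM for Col1a1, 4.76 for Col1a2, 1.39 for Col6a1, 0.696 for Loxl1, 1.62 for Fbn1, 1.62 for Fbln2, 2.09 for Ltbp2, 4.99 for Grem1 and 2.78 for Fat1, each above the other 5 libraries. In knockout M2 replicate 1 they were 6.02 CPM for Lox, 1.00 for Dcn and 4.01 for Grem1. The summed members without Col18a1 stood at 88.2 CPM without TMM scaling in knockout M0 replicate 1, against 43.3 to 55.8 in the other 5. The other flags did not share a library with these. Loxl3 was high in knockout M2 replicate 4, at 16.96 CPM. In wild-type M2 libraries Bgn was high in replicate 5, at 25.4 CPM, and Fbln2 low in replicate 1, at 3.57 CPM. In wild-type M0 libraries Col6a2 was low in replicate 4, at 3.11 CPM, and Pdgfrb high in replicate 5, at 5.38 CPM.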

How the results depend on the processing

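The number of the 31 genes past the threshold with IL-4 in wild-type cells, 4 as reported, moved with the fit. It was 7 with DESeq2, 2 with no count filter, 8 with only the 2 groups in the fit, 1 in replicates 1 to 3 alone and 8 with limma on log2(GETMM + 1). The share of all genes called under each alternative is not given here. A changed count may therefore only follow more or fewer calls among all genes. Those that fell, 3 as reported, were 6, 1, 7, 1 and 6 under the same settings and 5 with a library-set term, a factor for the ranges of library numbers in the labels. Those that rose, 1 as reported, were 0 in replicates 1 to 3 alone and 2 with limma on log2(GETMM + 1). Col4a1 passed under all 13 alternatives and Lox in all but replicates 1 to 3 alone. Acta2 and Bgn each missed under 5: no count filter, without the 3 libraries numbered apart, replicates 1 to 3 alone, limma on log2(GETMM + 0.1), and limma with no filter. In knockout cells the count, 0 as reported, was 1 (Col4a1) with the library-set term and with limma at either pseudocount after filtering. The difference between IL-4 responses stayed at 0 members under every alternative run. The knockout below wild-type counts stayed between 28 and 30.

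Pairing of M2 and M0 libraries by culture number was not taken as given, since not every pair's deviations correlated above 0.1: they correlated at -0.045 to 0.23 in knockout and 0.020 to 0.33 in wild-type cells, and the labels do not say what it marks. M0 libraries correlated best with the M2 library of their own number in 4 of 6 knockout and 3 of 6 wild-type cultures. M2 libraries did so with their own M0 library in 3 of 6 and 2 of 6. The highest r was between different numbers, 0.232 against 0.226 in knockout and 0.378 against 0.326 in wild-type cells. These values do not settle the pairing. With the culture number as a replicate block, 2 members passed in knockout cells (Col18a1 and Grem1, lower) and 11 in wild-type cells (2 higher and 9 lower), and 0 differed between genotypes. The share of all genes called with this block is likewise not given.

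Leaving out knockout culture 7, an alternative chosen after seeing the data, gave a median r of 0.00684 in knockout M0 cells, against 0.765 as reported, and the count of members with knockout below wild-type libraries was 29 with IL-4 and 29 without. The cause of these changes was not tested. Low counts limit the knockout values: at total counts like those of wild-type libraries, the median member had 11.3 and 13.5 counts per library in knockout M2 and M0 cells.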
